A study of Caenorhabditis elegans with 33 samples.

Results

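The intestinal innate immunity genes described here are 7 Caenorhabditis elegans genes taken by sequence name from the deposited mRNA table: lys-1 (Y22F5A.4), lys-7 (C02A12.4), irg-5 (F35E12.5), irg-4 (F08G5.6), dod-24 (C32H11.12), dod-22 (F55G11.5) and T24B8.5. They are 7 of the 20517 genes in that table, and all 7 were among the 15174 genes that passed a filter on low values. RefSeq (assembly WBcel235) lists all 7 as protein-coding genes and gives T24B8.5 the symbol sysm-1. The measure was the FPKM of each gene, the fragments mapped to it scaled by transcript length and by the library's mapped fragments, which allows levels to be set side by side between genes of different length.

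The libraries came from whole worms at the late L4 larval stage, fed E. coli OP50, an ordinary food strain and not a pathogen. Each of 5 genotypes had 3 libraries of ribosomal RNA-depleted RNA: the wild type strain N2, alg-1(gk214), alg-2(ok304), alg-5(tm1163) and alg-5(ram2). The alg genes encode Argonautes, the proteins that hold microRNAs and act on the messenger RNAs those microRNAs pair with. Larvae of 4 genotypes were collected 49 hours after synchronisation at the L1 stage, and alg-1(gk214) larvae 53 hours after it so that stages matched. Genotype and collection time therefore cannot be told apart in any comparison with alg-1(gk214). The labels do not say whether the libraries of a genotype came from separate cultures, so p-values measure only the spread between these libraries.

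C. elegans has no circulating immune cells, and the intestine is its main barrier against swallowed microbes. A conserved p38 MAP kinase cascade, in which TIR-1, NSY-1, SEK-1 and PMK-1 act in turn and the transcription factor ATF-7 lies downstream, sets the basal and induced level of many secreted defence proteins there, and the insulin-regulated factor DAF-16 acts on a partly overlapping set. The products include lysozymes, which cut bacterial cell walls, and secreted proteins with a CUB-like domain, whose biochemical function is not well known. ALG-1 and ALG-2 are the main microRNA Argonautes of the soma, and ALG-5 is known for a role in the germline.

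The targeted genes were read first. alg-1 was at 30.3 ± 2.05 FPKM in wild type and 13.02 ± 2.88 in alg-1(gk214), alg-2 was at 15.3 ± 1.96 in wild type and 2.06 ± 0.114 in alg-2(ok304), and alg-5 was at 9.35 ± 1.17 in wild type and 0.720 ± 0.241 in alg-5(ram2) (SD, n = 3 for each). In alg-5(tm1163) alg-5 was at 10.2 ± 1.37 FPKM, so the level of the whole gene does not check that label. Summed FPKM per library lay between 1182260 and 1299330, and between 13070 and 13727 genes reached 1 FPKM. The read depth is unknown, and no counting interval is given.

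In wild type larvae the 7 genes covered a wide range of levels. lys-1, a lysozyme, stood at 565 ± 52.03 FPKM, above 97.8% of the tested genes. dod-24 at 148 ± 36.0, lys-7 at 116 ± 22.1, irg-5 at 104.2 ± 33.6 and irg-4 at 72.2 ± 12.58 FPKM lay above 92.7%, 90.9%, 90.04% and 86.1% of the tested genes. dod-22 was at 16.2 ± 0.538 FPKM, above 54.6% of them (SD, n = 3 for each gene). T24B8.5 lay lowest, at 0, 9.56 and 5.0 FPKM in the 3 wild type libraries.

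**Figure D1:**
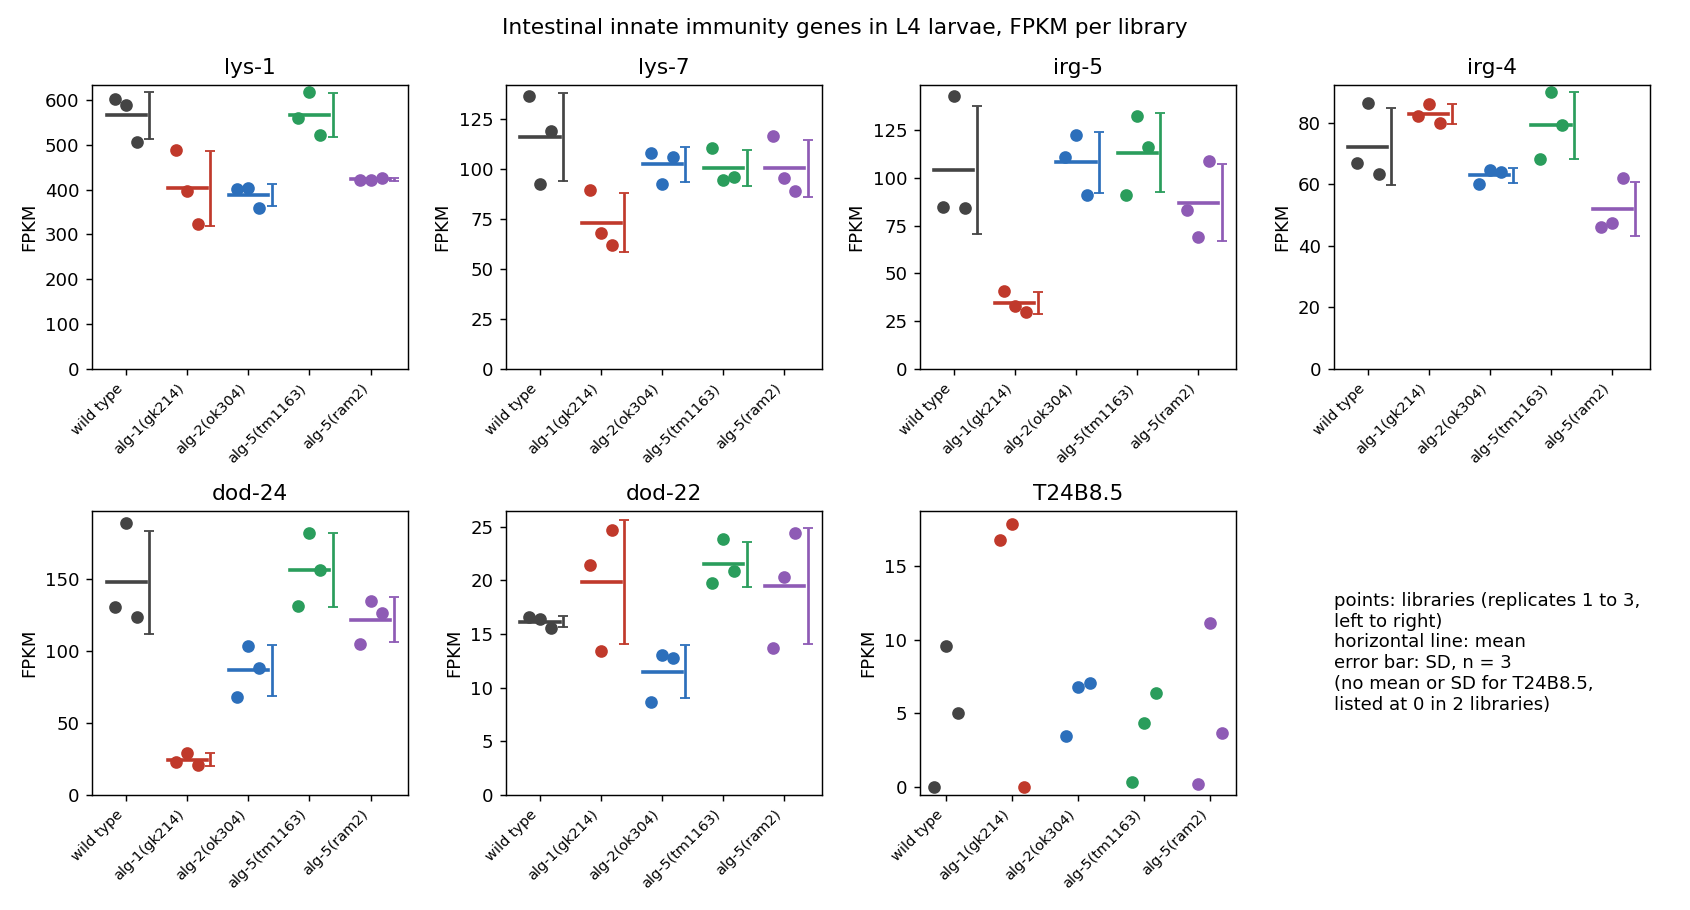
FPKM of each of the 7 genes (vertical axes, each with its own scale) in the 3 libraries of each genotype. Points are libraries, lines are means and bars are SD (n = 3), left out for T24B8.5; the alg-1(gk214) libraries of irg-5 and dod-24 lie below all libraries of the other genotypes.

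The largest change among the 7 was in dod-24, a CUB-like gene known as one whose level depends on the DAF-16 pathway. Its 3 libraries read 131, 189 and 124 FPKM in wild type, 22.98, 29.3 and 21.04 in alg-1(gk214), and 68.0, 103.6 and 88.1 in alg-2(ok304). They read 131, 182 and 156 FPKM in alg-5(tm1163) and 105, 135 and 127 in alg-5(ram2). All alg-1(gk214) libraries lay below every other library, the alg-2(ok304) libraries lay between them and all the rest, and wild type overlapped with both alg-5 alleles. On the log2(FPKM + 1) scale, which understates changes of low genes, dod-24 fell by 2.54 in alg-1(gk214) (SE 0.199, 95% interval -2.96 to -2.11, limma adjusted p = 2.50e-06), to a level above 64.8% of tested genes. In alg-2(ok304) it fell by 0.76 (SE 0.199, limma adjusted p = 0.0216). That second call rests on few libraries: the adjusted p was 0.0932 with wild type replicate 2 left out, 0.102 with alg-2(ok304) replicate 1 left out and 0.0533 with alg-2(ok304) replicate 3 left out.

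irg-5, an infection response gene that encodes a CUB-like protein and depends on PMK-1, gave the other large change. Its libraries read 85, 143 and 84.5 FPKM in wild type, 40.8, 32.9 and 29.98 in alg-1(gk214), and 111, 123 and 91.1 in alg-2(ok304). They read 91.1, 132 and 116 FPKM in alg-5(tm1163) and 83.1, 69.1 and 109 in alg-5(ram2). The alg-1(gk214) libraries stood alone below the rest, and the ranges of the other 4 genotypes overlapped. irg-5 fell by 1.53 on the log2(FPKM + 1) scale in alg-1(gk214) (SE 0.225, 95% interval -2.01 to -1.05, limma adjusted p = 3.87e-04). In alg-2(ok304) the difference was 0.09 (95% interval -0.39 to 0.57, limma adjusted p = 0.869).

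irg-4, a second infection response gene with a CUB-like product and a PMK-1-dependent level, did not follow irg-5. Its libraries read 66.9, 86.6 and 63.3 FPKM in wild type, 82.3, 86.3 and 80.0 in alg-1(gk214), and 60.2, 64.8 and 63.9 in alg-2(ok304). They read 68.4, 90.0 and 79.2 FPKM in alg-5(tm1163) and 46.2, 47.6 and 62.1 in alg-5(ram2). alg-1(gk214) had the highest mean, 82.9 ± 3.17 FPKM, within the wild type range, and alg-5(ram2) the lowest, 51.9 ± 8.80, just below it. The difference from wild type was 0.21 in alg-1(gk214) (95% interval -0.11 to 0.52, limma adjusted p = 0.389) and -0.18 in alg-2(ok304) (adjusted p = 0.494).

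lys-1, the most abundant of the 7, was lower in both alg-1(gk214) and alg-2(ok304). Its libraries read 601, 589 and 506 FPKM in wild type, 488, 397 and 322 in alg-1(gk214), and 402, 402 and 360 in alg-2(ok304). They read 559, 618 and 521 FPKM in alg-5(tm1163) and 421, 422 and 425 in alg-5(ram2). Wild type and alg-5(tm1163) overlapped at the top, all libraries of the other 3 genotypes lay below them, and the alg-1(gk214) range covered those of alg-2(ok304) and alg-5(ram2). lys-1 fell by 0.51 in alg-1(gk214) (SE 0.130, limma adjusted p = 0.0176) and by 0.54 in alg-2(ok304) (SE 0.130, adjusted p = 0.0137) on the log2(FPKM + 1) scale. The first call had an adjusted p of 0.0581 or 0.0584 with wild type replicate 1 or 2 left out and 0.0726 with alg-1(gk214) replicate 3 left out. The second had 0.0501 with wild type replicate 1 left out and 0.0612 with alg-2(ok304) replicate 3 left out. lys-1 is close in sequence to its clone neighbours lys-2 and lys-3, and how the authors' counting divided reads between such copies is not given in the sources used here, so the split among the 3 is uncertain.

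lys-7, a lysozyme known as a DAF-16 target, was lower in alg-1(gk214). Its libraries read 137, 92.8 and 119 FPKM in wild type, 89.9, 68.0 and 62.2 in alg-1(gk214), and 108, 92.5 and 106 in alg-2(ok304). They read 111, 94.9 and 96.1 FPKM in alg-5(tm1163) and 117, 95.7 and 89.1 in alg-5(ram2). The alg-1(gk214) range ended just under the lowest wild type library and overlapped with that of alg-5(ram2). lys-7 fell by 0.66 in alg-1(gk214) (SE 0.165, limma adjusted p = 0.0161). Leaving out wild type replicate 1, alg-1(gk214) replicate 2 or alg-1(gk214) replicate 3 ended the call, with adjusted p up to 0.0682.

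dod-22, a CUB-like gene whose level is known to depend on both PMK-1 and the DAF-16 pathway, passed the test in no comparison. Its libraries read 16.6, 16.4 and 15.6 FPKM in wild type, 21.5, 13.4 and 24.7 in alg-1(gk214), and 8.62, 13.04 and 12.77 in alg-2(ok304). They read 19.8, 23.9 and 20.9 FPKM in alg-5(tm1163) and 13.7, 20.3 and 24.4 in alg-5(ram2). The alg-2(ok304) libraries lay below the wild type ones and the alg-5(tm1163) libraries above them, and the other 2 genotypes spread across the wild type range. The log2 difference from wild type was -0.48 in alg-2(ok304) (95% interval -1.01 to 0.05, limma adjusted p = 0.258) and 0.24 in alg-1(gk214) (95% interval -0.29 to 0.77, adjusted p = 0.582).

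T24B8.5 encodes a small secreted peptide and is widely used as a reporter of PMK-1 activity. It read 16.8, 17.8 and 0 FPKM in alg-1(gk214), 3.48, 6.82 and 7.08 in alg-2(ok304), 0.332, 4.36 and 6.37 in alg-5(tm1163), and 0.255, 11.09 and 3.68 in alg-5(ram2). It was thus listed at 0 in 1 wild type and 1 alg-1(gk214) library, and the 2 highest libraries of all 15 were also alg-1(gk214). Its SD within genotypes was 1.65 on the log2(FPKM + 1) scale, against 0.162 to 0.306 for the other 6 genes. At that spread no comparison could be resolved: the interval of the alg-1(gk214) difference ran from -1.70 to 3.30 (limma adjusted p = 0.715).

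Counted together, 4 of the 7 genes (irg-5, dod-24, lys-1 and lys-7) were lower in alg-1(gk214) than in wild type and 0 were higher, where 8.41% of all tested genes were lower and 6.39% higher. The same 4 had libraries that did not overlap with wild type, as did 27.6% of tested genes. In alg-2(ok304), 2 of the 7 (lys-1 and dod-24) were lower and 0 higher, where 7.08% of tested genes were lower and 4.87% higher. For 3 of the 7 (lys-1, dod-24 and dod-22) the alg-2(ok304) libraries did not overlap with wild type, as for 27.5% of tested genes. The median log2 difference of the 7 was -0.51 in alg-1(gk214) and -0.18 in alg-2(ok304), beside medians of 0.01 and 0.00 over all tested genes. These comparisons share the wild type libraries.

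**Figure D2:**
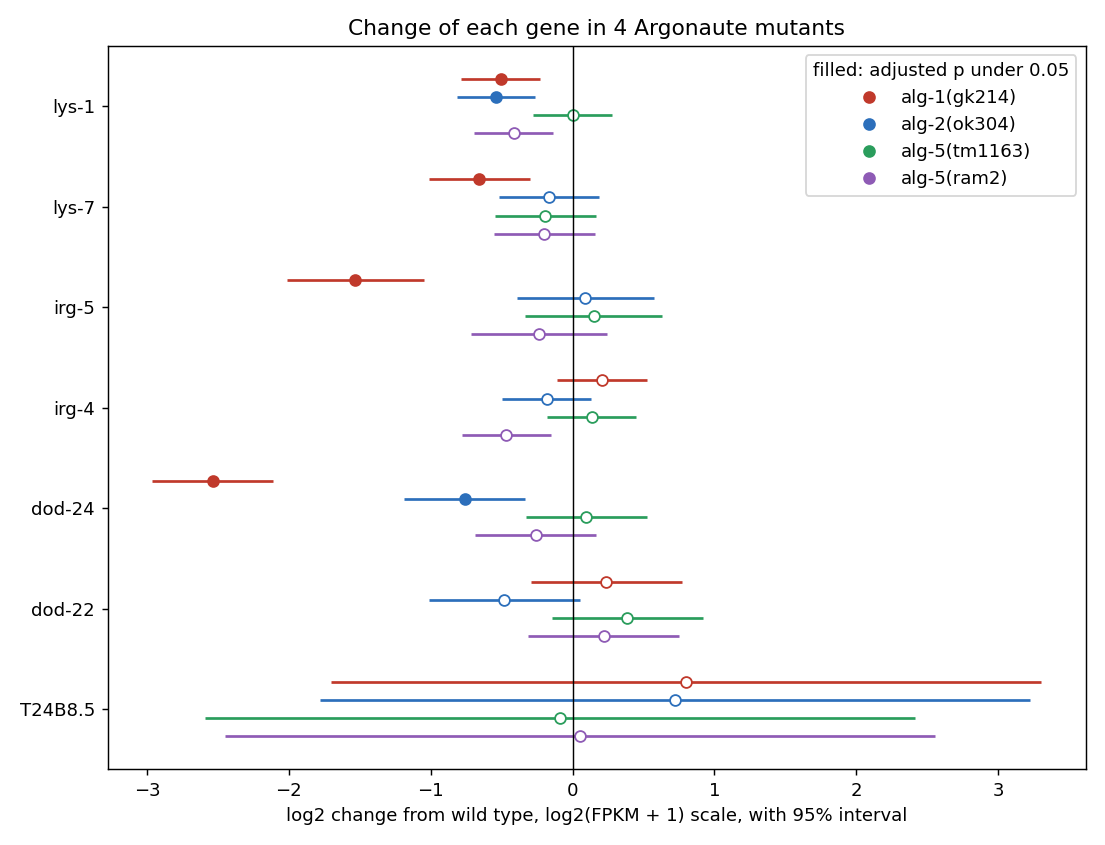
Log2 difference from wild type of each gene (rows) in the 4 mutants, on the log2(FPKM + 1) scale, with 95% intervals from limma. Filled points have an adjusted p under 0.05: irg-5, dod-24, lys-1 and lys-7 in alg-1(gk214), and lys-1 and dod-24 in alg-2(ok304); the intervals of T24B8.5 are the widest.

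In the alg-5 mutants 0 of the 7 genes passed the test, where 0.0857% of all tested genes did in alg-5(tm1163) and 0.290% in alg-5(ram2). At an unadjusted p under 0.05, limma gave 0 of the 7 in alg-5(tm1163) and 2 of the 7 in alg-5(ram2), where 1633 and 1165 of the 15174 tested genes had such a p. Those 2 were irg-4, with a log2 difference of -0.47 (95% interval -0.78 to -0.15, limma adjusted p = 0.359), and lys-1, with -0.42 (95% interval -0.69 to -0.14, adjusted p = 0.357). Neither gene's alg-5(ram2) libraries overlapped with wild type, and 12.3% of tested genes showed the same; dod-22 alone did not overlap between alg-5(tm1163) and wild type, where 12.6% of tested genes did not. In alg-5(tm1163) the log2 differences of the 6 genes other than T24B8.5 lay between -0.19 for lys-7 and 0.39 for dod-22.

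The alleles were also compared with each other. Of the 7 genes 0 passed the test between alg-5(ram2) and alg-5(tm1163), where 0.0791% of tested genes did. At an unadjusted limma p under 0.05 there were 2 of the 7, and 870 of the 15174 tested genes. irg-4 was at 51.9 ± 8.80 FPKM in alg-5(ram2) and 79.2 ± 10.8 in alg-5(tm1163), a log2 difference of -0.60 (95% interval -0.92 to -0.29, limma adjusted p = 0.293). lys-1 was at 423 ± 2.40 and 566 ± 49.1 FPKM, a log2 difference of -0.42 (95% interval -0.70 to -0.14, adjusted p = 0.576). For both genes the libraries of the alleles did not overlap, as for 12.7% of tested genes.

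alg-1(gk214) was also tested directly against the mean of alg-2(ok304), alg-5(tm1163) and alg-5(ram2). A difference from that mean is not a difference from each mutant, and alg-1(gk214) was not tested against any of them alone. Of the 7 genes 3 were lower and 0 higher, where 5.23% of tested genes were lower and 3.90% higher. dod-24 was lower by a log2 difference of -2.23 (SE 0.162, limma adjusted p = 3.92e-06) and irg-5 by -1.53 (SE 0.183, adjusted p = 1.23e-04), and for both genes no alg-1(gk214) library overlapped with any of the other 9, as for 6.37% of tested genes. lys-7 differed by -0.47 (adjusted p = 0.0427), a call that was lost when any of 9 of the 12 libraries was left out, with adjusted p up to 0.216. lys-1 differed by -0.19 (95% interval -0.42 to 0.04, adjusted p = 0.328) from a mean of unlike levels. These were 388 FPKM in alg-2(ok304), 566 in alg-5(tm1163) and 423 in alg-5(ram2), beside 402 in alg-1(gk214). irg-4 had a difference of 0.38 in the other direction (95% interval 0.12 to 0.64, adjusted p = 0.0656), and it passed as higher with alg-5(ram2) replicate 3 left out (adjusted p = 0.0355) and with the compared groups alone (0.0448).

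Over all 5 genotypes at once, limma's F test called 4 of the 7 genes, where it called 15.4% of all tested genes. These were dod-24 (adjusted p = 2.61e-06), irg-5 (4.56e-04), lys-1 (0.0112) and irg-4 (0.0250). The F test gave adjusted p of 0.0847 for lys-7, 0.123 for dod-22 and 0.933 for T24B8.5. The genotype means of dod-24 spanned 2.63 on the log2(FPKM + 1) scale and those of irg-5 1.68, against 0.54 to 0.89 for the other 5 genes.

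The 7 genes did not vary as a block. Over the 15 libraries, irg-5 and dod-24 had a Pearson r of 0.89 on the log2(FPKM + 1) scale, and irg-4 had r of -0.16 with irg-5 and -0.25 with dod-24. After subtraction of each genotype's mean, irg-4 had r of 0.83 with irg-5 and 0.74 with dod-24, and irg-5 and dod-24 had 0.53. The values did not rank alike in every genotype: in alg-5(ram2) replicate 2 was the lowest library of irg-5 and the highest of dod-24. lys-7 ran the other way within genotypes, with r of -0.64 against irg-4 and -0.63 against dod-24. These are descriptions over 15 libraries, of which each set of 3 shares a genotype.

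**Figure D3:**
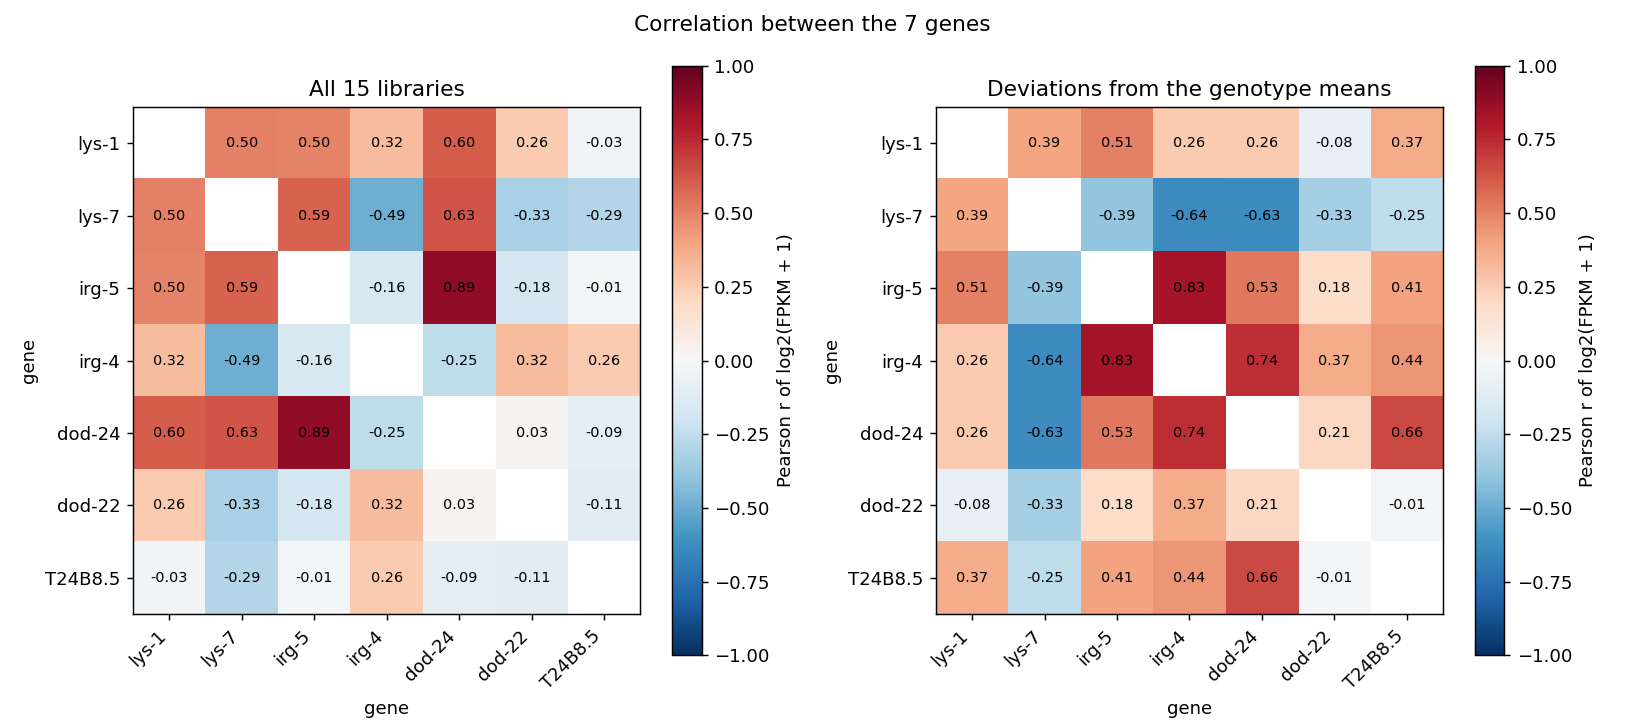
Pearson r between the 7 genes (both axes) on the log2(FPKM + 1) scale, over all 15 libraries on the left and after subtraction of the genotype means on the right. irg-4 against irg-5 goes from -0.16 on the left to 0.83 on the right, and lys-7 against dod-24 from 0.63 to -0.63.

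The highest library of some members often had the same replicate number. Replicate 2 was the highest library of dod-24 in 5 of 5 genotypes, of irg-4 in 4 of 5 and of irg-5 in 3 of 5. Replicate 1 was the highest library of lys-7 in 5 of 5. The other members were more mixed: replicates 1, 2 and 3 were highest in 2, 2 and 1 genotypes for lys-1 and in 1, 2 and 2 for dod-22. For T24B8.5 they were highest in 0, 3 and 2. The same count over all tested genes was not made. What the replicate numbers share is not given in the sources used here. A model with a replicate block was run as an alternative. With that block, 41 of 42 log2 differences of the members were called or not called as in the main model. The 1 that changed was irg-4, which passed as higher in alg-1(gk214) against the mean of the other mutants (limma adjusted p = 0.0480). The replicate number itself was not tested for any member.

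Genes with a profile most like each member were taken as the 3 with the highest Pearson r over the 15 libraries among 10763 genes averaging 5 FPKM or more. For dod-24 these were the C-type lectin gene clec-47 (r = 0.982), Y39B6A.1 (0.972) and asp-14 (0.969), and for irg-5 msra-1 (0.968), hach-1 (0.939) and acdh-1 (0.939). clec-47 was at 597 ± 172 FPKM in wild type and 69.2 ± 12.59 in alg-1(gk214) (log2 difference -3.07, limma adjusted p = 6.45e-07), with 380 ± 45.7 in alg-2(ok304). This gene was picked for its likeness to dod-24 over these same libraries, so its fall is no separate support for that of dod-24. After subtraction of the genotype means the r of clec-47 with dod-24 was 0.668. The closest gene to lys-1 was F53A9.8 (r = 0.940), to lys-7 clec-206 (0.901) and to T24B8.5 T25B9.11 (0.914). The closest genes to irg-4 and dod-22 had r of 0.843 (C49A9.9) and 0.835 (F19B10.10). These r values pool genotype differences with differences within genotypes.

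The members that fell were next set among other genes of their families, beginning with the lysozymes, of which 14 besides lys-1 and lys-7 were listed and 11 were tested. In alg-1(gk214) 7 of the 11 fell and 0 rose, with a median log2 difference of -1.43, and in alg-2(ok304) 4 of the 11 fell and 0 rose, with a median of -0.82. Among all tested genes 8.41% fell and 6.39% rose in alg-1(gk214), and 7.08% fell and 4.87% rose in alg-2(ok304). lys-4 went from 1227 ± 201 FPKM in wild type to 341 ± 66.8 in alg-1(gk214), a fall of 1.85 on the log2(FPKM + 1) scale (limma adjusted p = 2.50e-06). lys-3 went from 15.5 ± 2.68 FPKM to 0.827 ± 1.29 in alg-1(gk214) (log2 difference -3.38, adjusted p = 0.00141) and 1.49 ± 1.70 in alg-2(ok304) (-2.96, adjusted p = 0.00404). lys-5 went from 15.0 ± 6.45 FPKM to 0.884 ± 1.38 in alg-1(gk214), a log2 difference of -3.24 (adjusted p = 2.91e-04).

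lys-2, which shares a clone name with lys-1, went from 177 ± 36.0 FPKM in wild type to 63.7 ± 9.42 in alg-1(gk214) (log2 difference -1.45, limma adjusted p = 7.15e-04) and 92.1 ± 1.05 in alg-2(ok304) (-0.91, adjusted p = 0.0177). The second of these calls was lost without any of 4 single libraries (wild type replicates 1 and 2, alg-2(ok304) replicates 1 and 2; adjusted p up to 0.0733). ilys-5, an invertebrate-type lysozyme gene, went from 3283 ± 795 FPKM to 1827 ± 290 in alg-2(ok304) (log2 difference -0.83, adjusted p = 0.00465). In alg-1(gk214) ilys-5 was lower still, at 1200 ± 188 FPKM. Its log2 difference there from the mean of the other mutants was -1.08 (limma adjusted p = 1.88e-04). The falls of lys-1 and lys-7 were thus smaller on the log2 scale than the lysozyme list's median in alg-1(gk214). The summed FPKM of the 14 genes ranged from 3912 to 6066 over the wild type libraries, from 1574 to 2128 in alg-1(gk214) and from 2575 to 3202 in alg-2(ok304), with no overlap, and from 4008 to 4971 in the alg-5 alleles. In wild type ilys-5 and lys-4, with means of 3283 and 1227 FPKM, made up most of this lysozyme sum, whose mean was 4973. lys-9, ilys-1 and ilys-6 were listed at 0 throughout.

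The CUB-like and PMK-1 target genes outside the 7 moved both ways. Of 12 listed genes 10 were tested, and in alg-1(gk214) 3 fell and 2 rose, with a median log2 difference of -0.06. Among all tested genes 8.41% fell and 6.39% rose there. C32H11.4, which shares a clone name with dod-24, went from 21.04 ± 7.02 FPKM in wild type to 6.53 ± 1.78 in alg-1(gk214) (log2 difference -1.52, limma adjusted p = 0.00413) and 6.38 ± 1.32 in alg-2(ok304) (-1.54, adjusted p = 0.00422). F55G11.2, which shares a clone name with dod-22, went from 24.9 ± 7.22 FPKM to 9.95 ± 3.11 in alg-1(gk214) (log2 difference -1.25, adjusted p = 0.00484). K08D8.5 rose from 15.4 ± 7.13 FPKM to 38.7 ± 4.39 in alg-1(gk214) (1.39, adjusted p = 0.00905). C09H5.2, to which RefSeq gives the symbol catp-3, rose by 1.15 in alg-1(gk214) (adjusted p = 1.92e-04) and by 1.21 in alg-2(ok304) (adjusted p = 1.45e-04).

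In the RefSeq gene order dod-24 and dod-22 lie in 1 stretch with 6 protein-coding genes between them. Of the 8 genes in that stretch 5 were tested, and dod-24 was the only 1 that fell in alg-1(gk214) or in alg-2(ok304). Over all tested genes 8.41% and 7.08% were lower. F55G11.1 and F55G11.7 lay near the floor, at 2.36 and 0.470 FPKM in wild type, so a fall of either could hardly be called. F55G11.8 and dod-22 were at 25.6 and 16.2 FPKM. Among the genes sharing a clone name with irg-5, F35E12.9 fell in alg-1(gk214) by 0.93 on the log2(FPKM + 1) scale (limma adjusted p = 0.0428) and in alg-2(ok304), where irg-5 did not pass, by 1.35 (adjusted p = 0.00651). Between alg-1(gk214) and the mean of the other mutants it differed by 0.03 (adjusted p = 0.960). Among those of irg-4, the collagen gene col-130 rose in alg-1(gk214) by 1.66 (adjusted p = 5.64e-06). Of the clone neighbours of dod-22, 1 rose in alg-1(gk214). It was mbug-1, at 41.9, 29.4 and 30.2 FPKM there and 16.4, 21.1 and 15.6 in wild type. Of those of T24B8.5, 1 rose too. It was T24B8.3, at 171, 189 and 194 FPKM in alg-1(gk214) and 117, 105 and 122 in wild type. Over all tested genes 6.39% were higher in alg-1(gk214).

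Of the 12 listed genes of the p38 cascade, 2 rose (tpa-1 and pmk-1) and 1 fell (vhp-1) in alg-1(gk214), where 6.39% of all tested genes were higher and 8.41% lower, with a median log2 difference of 0.21. In alg-2(ok304) 1 rose (tpa-1) and 1 fell (vhp-1), with a median of 0.16. The kinase and adaptor genes sek-1, nsy-1 and tir-1 had log2 differences of 0.42, 0.27 and 0.19 in alg-1(gk214), and the factor genes skn-1 and atf-7 of 0.23 and -0.05, none of which passed the test (limma adjusted p from 0.190 to 0.885). pmk-1 went from 17.7 ± 2.70 to 26.4 ± 3.04 FPKM (log2 difference 0.55, adjusted p = 0.0455), a call lost without any of 5 of the 6 libraries, with adjusted p up to 0.147. tpa-1, a protein kinase C gene that acts upstream of PMK-1, rose from 9.24 ± 1.96 FPKM in wild type to 20.2 ± 1.37 in alg-1(gk214) and 20.2 ± 1.44 in alg-2(ok304) (log2 difference 1.06 in each, adjusted p = 0.00254 and 0.00274).

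vhp-1, which encodes a MAP kinase phosphatase known to act on PMK-1 and KGB-1, was the gene of these lists that changed in 3 mutants. It was at 126 ± 3.42 FPKM in wild type, 69.9 ± 8.79 in alg-1(gk214), 79.9 ± 13.9 in alg-2(ok304), 83.8 ± 13.1 in alg-5(tm1163) and 52.2 ± 4.76 in alg-5(ram2). The log2 difference was -0.85 in alg-1(gk214) (limma adjusted p = 0.00176), -0.66 in alg-2(ok304) (0.00971) and -1.26 in alg-5(ram2) (0.00232). In alg-5(tm1163) the log2 difference was -0.59 (adjusted p = 0.226). It was the only immunity-list gene to pass in alg-5(ram2), and 0 passed in alg-5(tm1163).

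Of 19 tested genes of the insulin pathway and DAF-16 targets, 3 fell and 0 rose in alg-1(gk214). In alg-2(ok304) 0 passed and 3 had an unadjusted limma p under 0.05, as did 3746 of the 15174 tested genes. The 3 that fell in alg-1(gk214) were ctl-2, sgk-1 and dod-19, with log2 differences of -0.67, -0.61 and -0.53. Each call was lost without any of 3 single libraries (limma adjusted p up to 0.134). Of 18 other immune regulators, 1 rose and 2 fell in alg-1(gk214), and 1 rose and 1 fell in alg-2(ok304). Beside both lists, 6.39% of all tested genes rose and 8.41% fell in alg-1(gk214), and 4.87% rose and 7.08% fell in alg-2(ok304). ets-4, an ETS-family transcription factor gene, fell in both, by 0.67 (limma adjusted p = 0.0203, up to 0.0847 without 1 library) and 0.72 (0.0153, up to 0.0725). hlh-30, which encodes a regulator of autophagy and defence genes, rose by 0.66 in alg-2(ok304) (adjusted p = 0.00633). elt-2, the intestinal GATA factor gene, had a log2 difference of -0.14 in alg-1(gk214) (adjusted p = 0.783).

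**Figure D4:**
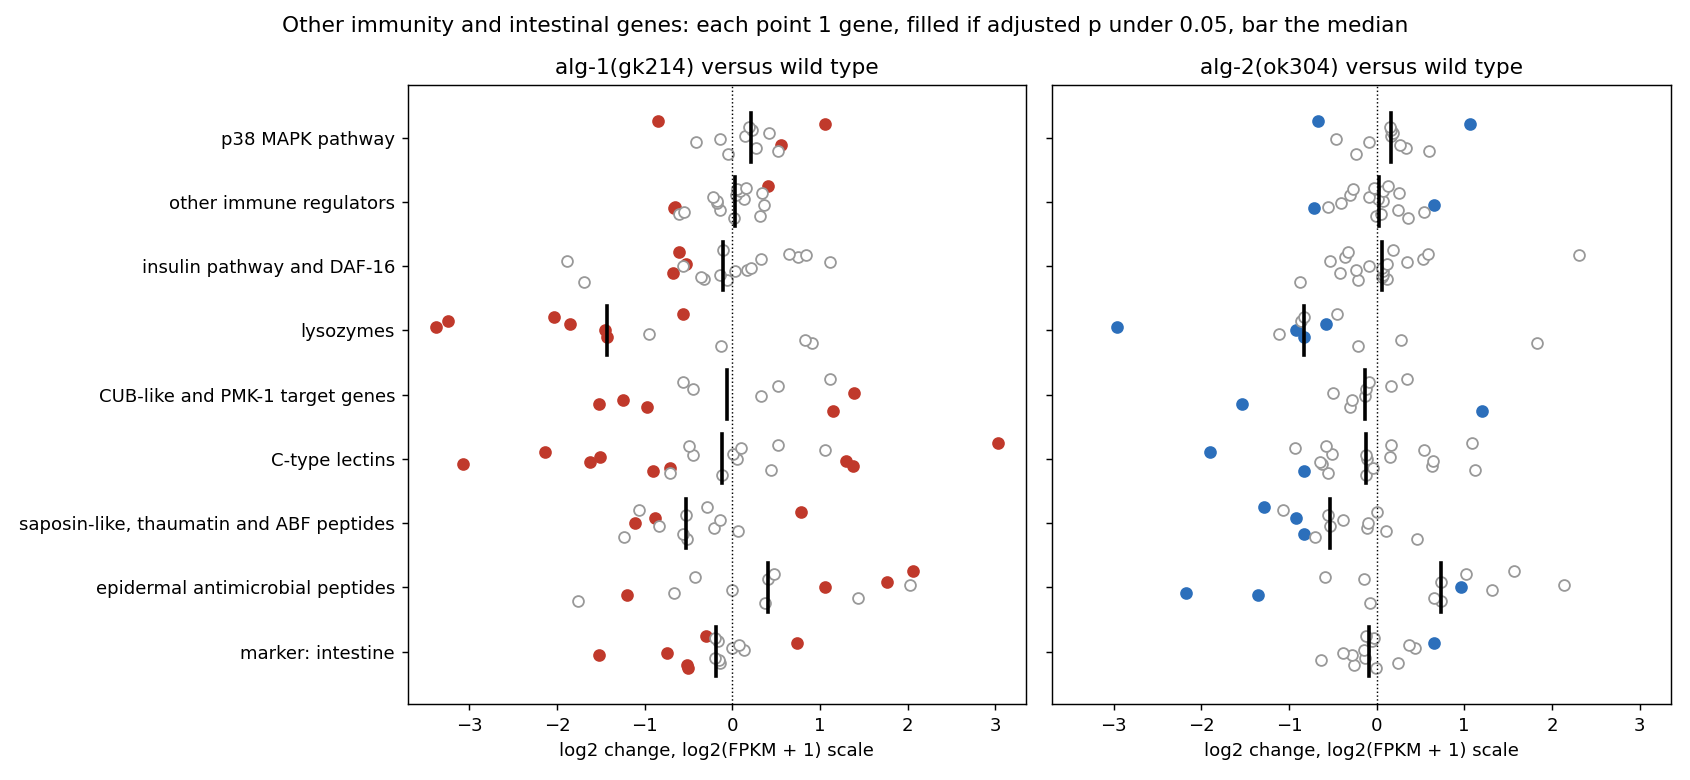
Log2 difference from wild type of the genes of 9 lists (rows) in alg-1(gk214), left, and alg-2(ok304), right, on the log2(FPKM + 1) scale. Each point is 1 gene, filled where its adjusted p is under 0.05, and black bars are list medians; the lysozyme median lies at -1.43 on the left and -0.82 on the right.

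Of 14 marker genes of the intestine, where the 7 genes act, 5 fell, 1 rose and 8 did not pass in alg-1(gk214), with a median log2 difference of -0.18, where 8.41% of all tested genes were lower and 6.39% higher. In alg-2(ok304) 0 fell and 1 rose. The falls included ftn-1 (log2 difference -1.52, limma adjusted p = 0.00604), ges-1 (-0.75, 0.00492) and asp-1 (-0.52, 0.0195), while the structural gene ifo-1 rose (0.73, 3.74e-04). The asp-1 call was lost with wild type replicate 2, alg-1(gk214) replicate 1 or alg-1(gk214) replicate 3 left out (adjusted p up to 0.0838). The summed FPKM of the 14 markers ranged from 9427 to 11658 in wild type and from 7361 to 7719 in alg-1(gk214), with no overlap. In alg-2(ok304) it ranged from 8176 to 10095. None of the 14 was listed at 0 in all 15 libraries. Most of this sum was asp-1, at 7502 ± 934 FPKM in wild type and 5212 ± 212 in alg-1(gk214), beside mean sums of 10397 and 7566. In whole worms, less intestinal tissue or RNA and a change in the marker genes' own levels cannot be told apart.

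The members were therefore also read relative to that sum, an alternative chosen after seeing the data, in which asp-1 alone makes up most of the sum and the median of all tested genes moved to 0.41 on the log2 scale in alg-1(gk214). Scaled so, dod-24 still had a log2 difference of -2.09 (limma adjusted p = 5.69e-06) and irg-5 of -1.09 (adjusted p = 0.00406) in alg-1(gk214). lys-1 had -0.05 (adjusted p = 0.850) and lys-7 -0.21 (0.523), and irg-4 passed as higher at 0.66 (0.00934), beside the shift of 0.41 over all genes. In alg-2(ok304) neither lys-1 (-0.37, adjusted p = 0.229) nor dod-24 (-0.59, 0.0577) passed. The calls of lys-1, lys-7 and irg-4 in alg-1(gk214) thus changed with this scaling, and those of irg-5 and dod-24 did not.

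The markers of other tissues were read for the same libraries. Of 8 epidermal markers 4 fell and 2 rose in alg-1(gk214), and 4 fell and 1 rose in alg-2(ok304). Among all tested genes 8.41% fell and 6.39% rose in alg-1(gk214), and 7.08% fell and 4.87% rose in alg-2(ok304). Among those that fell, bli-1 and bli-2, collagen genes of the cuticle, were at 490 ± 30.7 and 849 ± 181 FPKM in wild type, 15.8 ± 8.89 and 43.9 ± 14.2 in alg-1(gk214), and 31.4 ± 9.86 and 52 ± 18.99 in alg-2(ok304). nhr-25, a nuclear receptor gene, rose by 1.78 in alg-1(gk214) (limma adjusted p = 3.90e-04) and by 1.84 in alg-2(ok304) (3.35e-04). The summed FPKM of the 8 markers ranged from 1959 to 2562 in wild type. It ranged from 550 to 551 in alg-1(gk214) and from 603 to 675 in alg-2(ok304), with no marker listed at 0 throughout. In wild type bli-1 and bli-2 made up most of this sum, so it cannot be read as the amount of epidermis. Whether the genotypes were at the same stage was not tested. Among 10 body wall muscle, 7 pharynx and 10 neuron markers 0 passed in alg-1(gk214), with 0 of each list at an unadjusted limma p under 0.05, and 1 of 10 germline markers (nos-2) rose. In alg-2(ok304), 3 of the 10 muscle markers rose (unc-54, tnt-2 and unc-89, by 0.58, 0.63 and 0.52), as did 1 neuron marker (egl-3, by 0.48), and 0 of the pharynx and germline markers passed, with 1 of each at an unadjusted limma p under 0.05. The egl-3 call was lost without any of 4 single libraries (adjusted p up to 0.114). Over all 15174 tested genes, 4261 had an unadjusted limma p under 0.05 in alg-1(gk214) and 3746 in alg-2(ok304). The part of these differences in the values of the 7 genes was not tested.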

How the data were processed

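mRNA was measured in 15 libraries of late L4 larvae, 3 for each of 5 genotypes; 18 small RNA libraries of the same series were not used for values. The authors deposited 1 table of FPKM per gene and library. The submitters' processing notes name Trimmomatic 0.35, TopHat2, HTSeq, DESeq2 and Cuffdiff, without roles or order, and per the labels' protocols the mRNA libraries kept strand information by dUTP; the genome build and annotation are not given in the sources used here, so no coordinates are given. The deposited small RNA tables, in RPM, were used only to see which genes they list. FPKM are not counts and carry no depth, so no count model was run and the precision rests on the 3 libraries of a genotype.

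Genes whose mean reached 1 FPKM in any genotype (15174 of 20517) were tested as log2(FPKM + 1) in limma 3.58.1 (R 4.3.3) with a mean-variance trend, 1 mean per genotype and all 15 libraries in 1 model (10 residual and 3.87 prior degrees of freedom). P-values were adjusted by Benjamini-Hochberg over all tested genes, with a threshold of 0.05. The procedure was tested on simulated data. Levels are means ± SD over 3 libraries, and "no overlap" means that all libraries of 1 group lie above all of the other.

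The 7 genes, the gene lists and the comparisons were chosen with earlier results of these data known. Named genes are the 7 members, the targeted genes, up to 4 called genes per list and comparison with the largest log2 difference, called genes that share a clone name with a member (up to 4 per clone), and the 3 genes most correlated with each member. Outside that rule sek-1, nsy-1, tir-1, skn-1, atf-7 and elt-2, which did not pass, were named after their values were seen. Names were matched to RefSeq (WBcel235) for 20063 genes. Alternatives were a pseudocount of 0.1 FPKM, no filter, only the compared groups, a replicate block, median-of-ratios scaling and leaving out each library; scaling by intestinal markers was added after seeing the data.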

Additional observations from a re-analysis of the deposited data

Results flagged for a closer look

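Of the 7 genes, 3 differed between mutants by a test of the difference itself, alg-1(gk214) against the mean of alg-2(ok304), alg-5(tm1163) and alg-5(ram2) in limma. All 3 were lower, where 5.23% of all tested genes were lower and 3.90% higher. The log2 difference was -2.23 for dod-24, -1.53 for irg-5 and -0.47 for lys-7 (adjusted p = 3.92e-06, 1.23e-04 and 0.0427). The lys-7 call was lost when any of 9 of the 12 libraries was left out (limma adjusted p up to 0.216) and with no filter (0.0518). alg-1(gk214) was collected 53 hours after L1 and the other mutants 49 hours after it, so genotype and collection time cannot be told apart. Relative to the summed intestinal markers the differences were -1.97, -1.27 and -0.21 (adjusted p = 3.34e-06, 5.71e-04 and 0.491), where the median of all tested genes moved to 0.24. Groups of 3 libraries are too small for a test of single outlying libraries.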

How the results depend on the processing

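The log2 differences of irg-5 and dod-24 in alg-1(gk214) kept their direction and passed the test under every alternative run, with adjusted p up to 0.00257 and 3.07e-05 when 1 library was left out. No result changed direction while called. When the model held the compared groups alone, which leaves fewer libraries to estimate the spread, limma called 1117 genes in alg-1(gk214) (2245 with all groups), 1169 in alg-2(ok304) (1814), 1 in alg-5(tm1163) (13), 16 in alg-5(ram2) (44) and 5 between the alg-5 alleles (12); of the 7 members 2 and 1 were then called in alg-1(gk214) and alg-2(ok304), with adjusted p of 0.113 for lys-1, 0.0925 for lys-7 and, in alg-2(ok304), 0.0754 for dod-24. Without the filter 8 genes were called in alg-5(tm1163). Scaled by intestinal markers, 0 members were called in alg-2(ok304), where 2 had been. Leaving out 1 library gave 1664 to 2195 genes called in alg-1(gk214), 1237 to 1792 in alg-2(ok304), 5 to 32 in alg-5(tm1163), 18 to 73 in alg-5(ram2), 880 to 1375 for alg-1(gk214) against the other mutants and 4 to 8 between the alg-5 alleles; members called were 2 to 4 in alg-1(gk214), with 2 without wild type replicate 1 or alg-1(gk214) replicate 3, 0 to 2 in alg-2(ok304), with 0 without alg-2(ok304) replicate 3, 2 to 4 against the other mutants and 3 to 5 in the F test. The call of lys-7 against the other mutants was lost with no filter (adjusted p = 0.0518). Of 69 other named results, 2 lost their call with a pseudocount of 0.1 FPKM, 18 with only the compared groups, 1 with the replicate block and 0 with no filter or median-of-ratios scaling.

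Same-numbered libraries of different genotypes had correlations of -0.0255 to 0.0904 between their deviations from genotype means. Those of replicate 1 were all positive (0.0221 to 0.0904). Of the 15 libraries 9 were closest to their own number among 1, 2 and 3. No chance level was computed for these values, so they do not decide whether the numbers mark pairs. The labels state no pairing, and the main model left the numbers out. With the replicate block, limma called 2458, 1943, 9 and 51 genes in alg-1(gk214), alg-2(ok304), alg-5(tm1163) and alg-5(ram2), 1593 for alg-1(gk214) against the other mutants and 10 between the alg-5 alleles, and irg-4 passed as higher against the other mutants (adjusted p = 0.0480; 0.0448 with only the compared groups).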

Other observations

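The epidermis is the other tissue that meets microbes, and it makes antimicrobial peptides of its own. Of 13 tested genes of the nlp and cnc families 3 rose and 1 fell in alg-1(gk214), and 1 rose and 2 fell in alg-2(ok304). Among all tested genes 6.39% rose and 8.41% fell in alg-1(gk214), and 4.87% rose and 7.08% fell in alg-2(ok304). nlp-29, known for its induction by fungal infection and wounding, rose from 118 ± 62.0 FPKM in wild type to 380 ± 125 in alg-1(gk214) (log2 difference 1.76, limma adjusted p = 0.00315). cnc-3 fell in both, by 1.21 (adjusted p = 0.00810) and 1.35 (0.00437). nlp-27 rose in both, by 1.06 (adjusted p = 0.00358) and 0.96 (0.00736). The summed FPKM of the 16 listed peptide genes ranged from 812 to 1155 in wild type, from 1183 to 1939 in alg-1(gk214) and from 1158 to 1440 in alg-2(ok304), and cnc-1, cnc-5 and cnc-6 were listed at 0 throughout.

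Among the remaining intestinal effectors, 6 of 19 tested C-type lectin genes fell and 3 rose in alg-1(gk214), and 2 fell and 0 rose in alg-2(ok304). clec-52 was at 33.5 ± 13.2 FPKM in wild type and 9.75 ± 1.36 in alg-1(gk214) (log2 difference -1.62, limma adjusted p = 0.00451), and clec-86 rose from 2.82 ± 2.35 to 27.6 ± 13.5 FPKM (3.03, adjusted p = 0.00746). Of 13 tested saposin-like, thaumatin and ABF peptide genes 2 fell and 1 rose in alg-1(gk214), and 3 fell and 0 rose in alg-2(ok304). spp-4, a saposin-like gene, was at 458 ± 119 FPKM in wild type, 246 ± 49.2 in alg-1(gk214) and 239 ± 43.4 in alg-2(ok304) (adjusted p = 0.0104 and 0.00896). The first of these calls was lost with alg-1(gk214) replicate 2 left out (adjusted p = 0.0506). Of 7 tested infection response genes outside the members 1 rose and 1 fell in each of these mutants. Of 7 tested genes of the intracellular pathogen response 0 passed in either, with 1 and 2 at an unadjusted limma p under 0.05. Of the 15174 tested genes, 4261 and 3746 had such a p. Beside the lists of this paragraph, 6.39% of all tested genes rose and 8.41% fell in alg-1(gk214), and 4.87% rose and 7.08% fell in alg-2(ok304).

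In the deposited small RNA tables, 0 of the 7 members are listed among the 3639 genes with CSR-1 siRNAs or the 2434 genes with Mutator siRNAs. Of 142 other immunity-list genes that were in the mRNA data, 13 are in the CSR-1 list, among them nsy-1, sek-1, atf-7 and skn-1, and 14 in the Mutator list, among them pmk-2, pmk-3, tpa-1, zip-2 and daf-16. Those are 9.15% and 9.86% of the immunity-list genes, where 17.7% and 9.12% of all genes in the mRNA data are listed. Beside those shares, 0 of 7 is given as a description of the members only.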
